A study of Arabidopsis thaliana with 18 samples.

Results

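The genes described here are those that coronatine lowered most in Arabidopsis thaliana seedlings. For each gene the mean of the 3 coronatine libraries was divided by the mean of the 3 DMSO libraries, both without NaCl, and 136 of 14229 genes, those at 0.33 or under, were chosen by that measured ratio. Their ratios lay between 0.0428 and 0.328 with a median of 0.259; 62 genes were at 0.25 or under and 6 at 0.1 or under. Because these values chose the genes, coronatine against DMSO without NaCl is given below as description only.

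RNA was taken from whole seedlings of the wild-type accession Col-0, grown in liquid medium and treated from 4 days after germination. There were 6 groups of 3 libraries: 5 µM coronatine with 100 mM NaCl, 5 µM DPAM-1 with 100 mM NaCl, 1% DMSO with 100 mM NaCl, and the same 3 treatments without NaCl. NaCl was added 16 h after the compound and the plants were harvested 2 h later. The labels name no solvent for the compound groups and no mock addition or harvest time for the groups without NaCl, so solvent cannot be told apart from compound, nor time and handling from NaCl. They number the libraries but do not say that these came from separate cultures, and the p-values then measure only the spread between libraries, which may be technical.

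Coronatine is a toxin of Pseudomonas syringae that mimics jasmonoyl-isoleucine. It binds the receptor COI1, which sends JAZ repressors to degradation and frees transcription factors such as MYC2; jasmonate signalling raises defence against insects and fungi and restrains growth. DPAM-1 is known from the labels only by its code name. Growth of young plant cells depends on wall loosening, on new wall and cuticle material, and on water uptake into the vacuole, and it is promoted by gibberellin, auxin and brassinosteroid.

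Library totals ranged from 13638981 to 37279056 counts, and every listed gene had at least 30 counts in each library, so a gene pushed under that count in any library is outside these results. The 136 genes had a median level of 795 normalized counts in DMSO, against 329 for all genes of the table. In the coronatine libraries, with or without NaCl, 70 of them had under 100 counts in at least 1 library. As a check of the treatment, 7 of 7 jasmonate-response genes were higher in coronatine with NaCl than in DMSO with NaCl, with a median log2 fold change of 4.08. The list of 16 root hair markers summed to 5897 to 6454 normalized counts in coronatine with NaCl, against 4459 to 5754 in DMSO with NaCl. The 6 endodermis markers summed to 1377 to 1812 in coronatine with NaCl, against 1754 to 1876 in DMSO with NaCl. The 15 xylem markers summed to 10921 to 11492 in coronatine with NaCl, against 7464 to 8493 in DMSO with NaCl. The 7 phloem markers summed to 6468 to 6573 in coronatine with NaCl, against 4731 to 5328 in DMSO with NaCl. The 6 guard cell markers summed to 1135 to 1190.4 in coronatine with NaCl, against 1308 to 1355 in DMSO with NaCl. The 13 mesophyll markers summed to 1266481 to 1287374 in coronatine with NaCl, against 1180672 to 1309896 in DMSO with NaCl. None of the marker genes was a member or at 0. A sum can rest on a few abundant genes. At an adjusted p under 0.05 in this comparison, 2 xylem markers fell, 3 rose and 10 did not pass. For root hair 0 fell and 7 rose, for endodermis 0 and 1, and for phloem 0 and 3. For guard cell 2 fell and 1 rose, and for mesophyll 3 and 5. Of all genes 24.0% fell and 23.8% rose. Against DPAM-1 with NaCl, coronatine with NaCl was lower in 4 endodermis markers and higher in 0. For root hair these counts were 0 and 9, for xylem 2 and 4, and for phloem 0 and 3. For guard cell they were 1 and 0, for mesophyll 3 and 5, and for all genes 20.9% and 21.4%. Without NaCl, in libraries that chose the genes, the endodermis markers summed to 1086.1 to 1367.5 in coronatine, against 1420.6 to 1995.2 in DMSO. In whole seedlings fewer cells of a type and less RNA per cell cannot be told apart, and the part of cell composition in the results was not tested.

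Together the 136 genes took 0.253% ± 0.00436 of all counts in coronatine with NaCl, against 1.40% ± 0.0637 in DMSO with NaCl (SD, n = 3 each). Without NaCl, where they were chosen, the share was 0.294% ± 0.0134 in coronatine and 1.53% ± 0.0573 in DMSO. In DPAM-1 it was 1.41% ± 0.0167 with NaCl and 1.63% ± 0.0908 without. The coronatine libraries with NaCl thus lay below those of DMSO and DPAM-1 with NaCl, and NaCl moved the share little beside that gap. The gap between coronatine and DMSO without NaCl follows from the choice of genes.

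**Figure D1:**
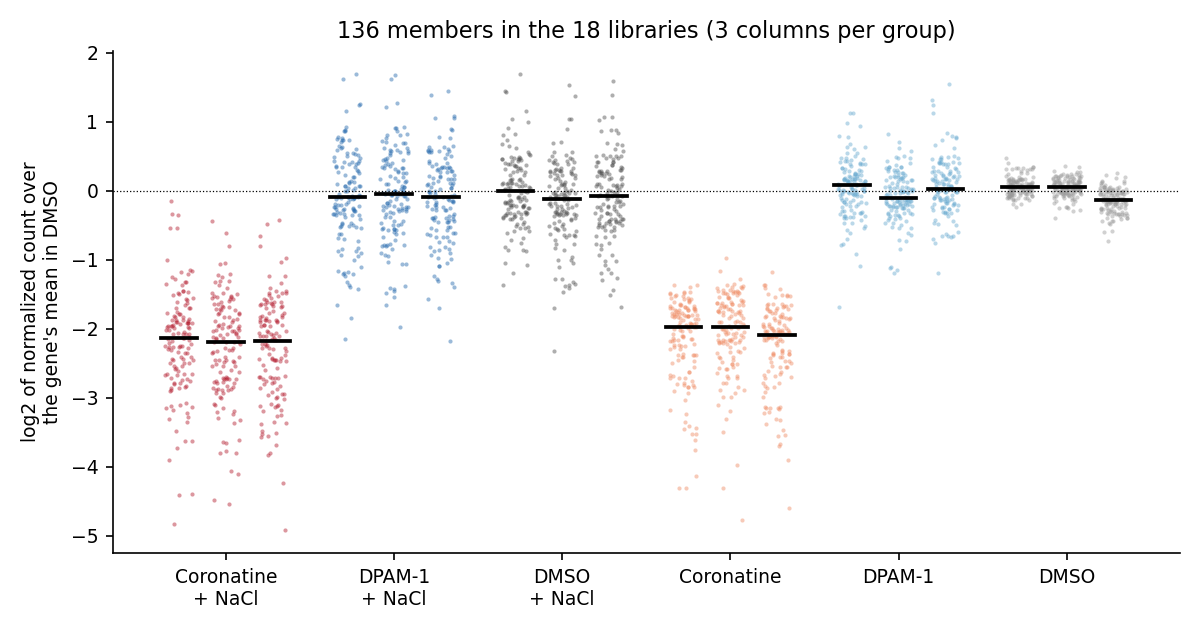
Each point is 1 of the 136 genes in 1 library, as the log2 of its normalized count over its mean in the 3 DMSO libraries; bars mark the median gene of each library. The medians of the 6 coronatine libraries lie near or under -2, and those of the DPAM-1 and DMSO libraries near 0.

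Coronatine with NaCl against DMSO with NaCl uses 6 libraries that the choice of genes did not, and asks whether the lower levels recur in salt. All 136 genes fell and 0 rose by edgeR's quasi-likelihood test at a Benjamini-Hochberg adjusted p under 0.05, where 24.0% of all genes fell and 23.8% rose. Their median log2 fold change was -2.09, against -0.01 for all genes, and single genes lay between -4.22 (GASA6) and -0.85 (CAMBP25). In all 136 the 3 coronatine libraries lay under the 3 DMSO libraries with no overlap, which was so for 29.4% of all genes; the opposite order, in 0 of them, held for 29.7%. The count of 0 higher was the same at an unadjusted p under 0.05 and by DESeq2. A fall of at least 2-fold besides the adjusted p was met by 134 of them and by 4.90% of all genes. Of all called genes 49.8% were higher with TMM factors, 30.2% by upper-quartile scaling and 17.4% by plain library totals, which put the median of all genes at -0.17 and -0.34. The median of the 136 was then -2.25 and -2.41, and the number of them that fell was unchanged under both.

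Gene by gene the ratios were close in the 2 settings. The ratio of mean levels, coronatine over DMSO, differed by at most 1.5 times between NaCl and no NaCl in 107 of 136 genes and by over 2 times in 4. Under NaCl 114 were at or below 0.33 and 2 were above 0.5. The ratio was lower with NaCl in 73 genes and higher in 63. ORS1, of a family that affects organ size, was at 0.304 with NaCl and 0.108 without. In the other direction AT1G30700, a berberine bridge enzyme-like protein, was at 0.117 with NaCl and 0.324 without.

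**Figure D2:**
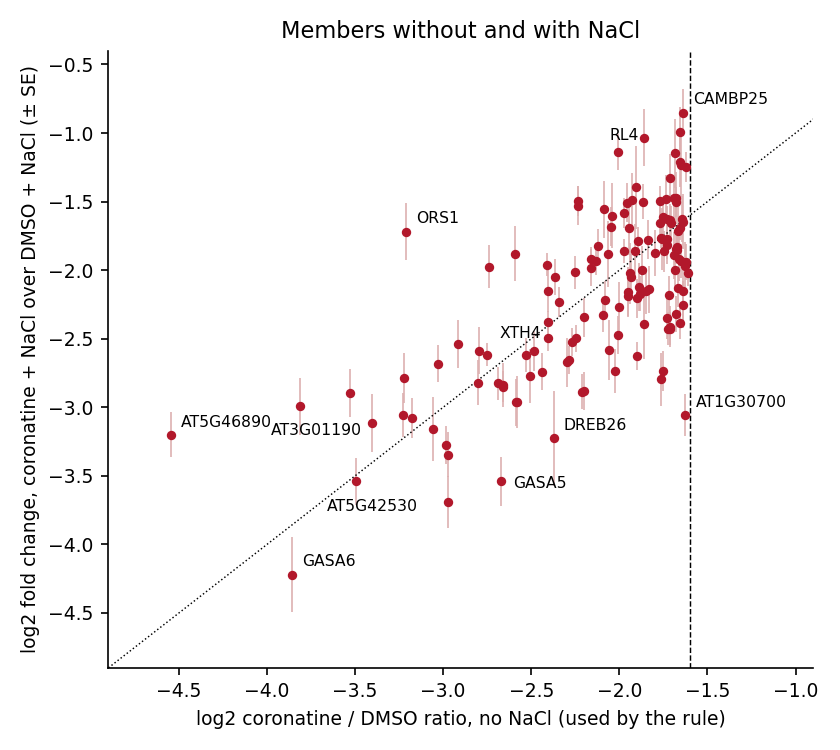
Each point is 1 gene: the horizontal axis is the log2 ratio of mean normalized counts, coronatine over DMSO without NaCl, and the vertical axis the fitted log2 fold change, coronatine with NaCl over DMSO with NaCl (± SE, 3 libraries a group). The dashed line is the limit of 0.33 and the dotted line marks equal values; all 136 points lie below 0 on the vertical axis, from -4.22 to -0.85.

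Enzymes of wall loosening were among the members. The set held 5 of the 21 xyloglucan endotransglucosylase/hydrolase (XTH) genes measured, which code for enzymes that cut and rejoin the xyloglucan between cellulose fibrils: XTH4, XTH8, XTH17, XTH19 and XTH31. They also held 2 of 15 expansins, EXPA6 and EXPA11, proteins that loosen the wall without cutting it. These 7 genes had ratios of 0.149 to 0.318 without NaCl and all fell under NaCl (median -1.88, range -2.62 to -1.50 on the log2 scale). XTH4 (AT2G06850) had 1025, 1034 and 979 normalized counts in the coronatine libraries with NaCl, against 6419, 5988 and 6193 in the DMSO libraries with NaCl. The levels of XTH4 that entered the rule were 1177, 1518 and 1290.3 with coronatine, against 9098, 9434 and 8302 with DMSO. With DPAM-1, XTH4 stood at 5784, 6141 and 6044 under NaCl and at 9807, 8951 and 9608 without it. The coronatine libraries with NaCl were below every DMSO and DPAM-1 library with NaCl for this gene. Its log2 fold change under NaCl was -2.62 ± 0.08 (SE), adjusted p = 2.32e-17, and that of XTH31 (AT3G44990) was -2.38 ± 0.08 (SE), adjusted p = 7.2e-17. EXPA6 (AT2G28950) was at -2.39 ± 0.12 (SE), adjusted p = 2.92e-14.

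The wider families did not move as 1 block under NaCl. Of the 16 XTH genes that are not members 10 fell and 2 rose in coronatine with NaCl against DMSO with NaCl, and the family's median was -1.50. XTH18, close in sequence to XTH17, was at -0.81 (adjusted p = 4.82e-05), against -1.88 for XTH17. XTH20 rose by 0.60 (adjusted p = 0.000794) and XTH32 was at -1.23 (adjusted p = 1.11e-09). Among the 13 other expansins 5 fell and 6 rose. None of the 33 cellulose synthesis genes was a member, and 8 of them fell and 8 rose under NaCl. In this comparison 24.0% of all genes fell and 23.8% rose. These shares also stand beside the counts of other families below.

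Pectin enzymes and other proteins that act on or bind sugars made a second group of 8 genes, with ratios of 0.0945 to 0.325. All fell under NaCl (median -1.85, range -3.11 to -1.25). The group was formed by product name and is mixed. It included AT5G35740, a carbohydrate-binding X8 domain protein, at -1.25 and AT3G01260, a galactose mutarotase-like protein, at -1.88. The lowest was AT4G16260, a glycosyl hydrolase of the glucanase type, at -3.11 ± 0.21 (SE), adjusted p = 1.26e-11. PME44 (AT4G33220), a pectin methylesterase, was at -2.85 ± 0.11 (SE), adjusted p = 6.89e-16, and the pectate lyase AT1G67750 at -2.96 ± 0.17 (SE), adjusted p = 6.53e-13. The group also held BGAL4, a beta-galactosidase, and BXL1, a beta-xylosidase, at -1.82 and -1.78. The list of 25 pectin modification genes was matched by symbol or synonym and held 1 member, PME44. The pectate lyase AT1G67750 is a member outside that list. Of the other 24 genes on it, 6 fell, 3 rose and 15 did not pass. TUB1 (AT1G75780), a beta-tubulin and the only 1 of 15 measured tubulins among the members, was at -1.93 ± 0.10 (SE), adjusted p = 1.42e-13. Of the 14 other tubulins 10 fell, 1 rose and 3 did not pass.

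Wall glycoproteins formed the next group. Of 35 arabinogalactan and fasciclin-like protein genes, which code for heavily glycosylated proteins of the cell surface, 7 were members: AGP7, AGP13, AGP14, AGP22, AGP26, AGP30 and FLA13. With the proline-rich PELPK1, AT4G38080 and AT5G15780 and the glycine-rich GRP9 the group had 11 genes, with ratios of 0.189 to 0.321, and all fell under NaCl (median -2.02, range -2.52 to -1.66). AGP7 (AT5G65390) had 624, 622 and 611 normalized counts in coronatine with NaCl, against 3602, 1902 and 2713 in DMSO with NaCl, a log2 fold change of -2.15 ± 0.17 (SE), adjusted p = 1.49e-10. AGP22 (AT5G53250) and AGP14 (AT5G56540) were at -2.15 and -2.01, and FLA13 (AT5G44130) at -2.15 ± 0.15 (SE), adjusted p = 2.5e-11. Among the 28 other genes of the family 16 fell and 5 rose.

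Members also held 4 of the 9 measured genes for DUF642 proteins, a plant family found in the wall: AT3G08030, AT4G32460, AT5G11420 and DGR2. The family was looked up after the members' names were seen. All 4 fell under NaCl (median -1.99, range -2.65 to -1.69), with AT5G11420 the lowest at -2.65 ± 0.10 (SE), adjusted p = 5.11e-16. Of the 5 others 1 fell and 2 rose. DGR2 (AT5G25460), the highest ratio of the set, had 1191, 1491 and 1229.6 normalized counts in coronatine, against 4167, 4101 and 3649.8 in DMSO, which puts it just inside the limit. ARAB-1 (AT1G28670, 0.325) and AT5G35740 (0.325) lay next to it. Just outside were UGT73B3, a glucosyltransferase, at 0.331, the pectin lyase-like AT4G24780 at 0.331 and the extensin EXT3 at 0.332. The limit therefore divides a continuous range of ratios.

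Class III peroxidases, secreted haem enzymes that can stiffen the wall by cross-linking or open it through oxygen radicals, were among the deepest members. There were 6, of 36 genes with this product name in the table, with ratios of 0.0711 to 0.275 without NaCl. Under NaCl all fell (median -2.73, range -3.08 to -1.50). AT3G01190 had 73.6, 66.1 and 79.1 normalized counts in the coronatine libraries with NaCl, against 675, 456 and 611 in the DMSO libraries with NaCl. The levels of AT3G01190 that entered the rule were 55.4, 55.8 and 124 with coronatine, against 1204, 1175 and 930.2 with DMSO. With DPAM-1, AT3G01190 stood at 513, 530.2 and 518 under NaCl and at 518, 615 and 689 without it. Its coronatine libraries with NaCl were all far below those of DMSO and DPAM-1 with NaCl. Under NaCl its log2 fold change was -2.99 ± 0.21 (SE), adjusted p = 1.87e-11. AT5G64100 was at -3.08 ± 0.14 (SE), adjusted p = 1.33e-14, and AT5G64120, its neighbour on chromosome 5, at -2.78 ± 0.18 (SE), adjusted p = 7.69e-12. Of the other 30 peroxidases 14 fell and 10 rose.

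Lipid and cuticle genes made up 18 members in 2 groups. GDSL lipases, secreted hydrolases of which some build or trim the cuticle, numbered 9 with LTL1, a lipase named for lithium tolerance. Under NaCl they all fell (median -2.18, range -2.83 to -1.53), and AT3G16370 was lowest at -2.83 ± 0.12 (SE), adjusted p = 1.72e-15. Of the 28 other genes with this product name 8 fell and 10 rose. The other group held enzymes of wax and cutin: KCS8, a fatty acid elongase, at -2.59 ± 0.14 (SE), adjusted p = 3.87e-13; GPAT8, which makes cutin precursors, at -2.22 ± 0.14 (SE), adjusted p = 3.52e-12; and CER2, which acts in the elongation of wax precursors, at -1.64 ± 0.11 (SE), adjusted p = 2.62e-11. BDG1, needed for the cuticle, and AT4G13840, an acyltransferase of the same family as CER2, fell as well. Of the 45 genes on the list of fatty acid elongation, cutin, wax and lipid transfer, 4 were members. Of the remaining 41, 28 fell and 5 rose. The list was matched by symbol or synonym, so it leaves out genes without a matching name.

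Lipid-transfer-like proteins included the deepest and the most abundant member. Of 39 genes with the lipid-transfer and 2S albumin product name 3 were members. Of the 36 others 14 fell, 8 rose and 14 did not pass in coronatine with NaCl against DMSO with NaCl. AZI1, given below, has another product name and is not counted here. AT5G46890 had 55.0, 50.3 and 82.2 normalized counts in the coronatine libraries with NaCl, against 565, 583 and 572 in the DMSO libraries with NaCl. The levels of AT5G46890 that entered the rule were 59.0, 42.6 and 47.9 with coronatine, against 1242, 1285 and 969 with DMSO. With DPAM-1, AT5G46890 stood at 262, 297 and 257 under NaCl and at 618, 539.9 and 742 without it. All its coronatine libraries with NaCl lay below those of DMSO and DPAM-1 with NaCl. The ratio of AT5G46890 without NaCl, 0.0428, was the lowest of all. Under NaCl the log2 fold change was -3.20 ± 0.16 (SE), adjusted p = 7.39e-14. AT2G10940 had 5799, 5535 and 6003 normalized counts in the coronatine libraries with NaCl, against 19964, 18121 and 21547 in the DMSO libraries with NaCl. The levels of AT2G10940 that entered the rule were 9301, 9820.0 and 10236 with coronatine, against 33802, 42566 and 32825 with DMSO. With DPAM-1, AT2G10940 stood at 19113, 21013 and 19553 under NaCl and at 44799.8, 35878 and 41005 without it. This gene had the highest mean DMSO level of the set and was at -1.78 ± 0.10 (SE), adjusted p = 1.7e-13 under NaCl. AZI1 (AT4G12470), a protein of systemic immunity, had 2248, 2237 and 1955 normalized counts in coronatine with NaCl, against 20354, 17045 and 16045 in DMSO with NaCl (-3.06 ± 0.16 (SE), adjusted p = 1.59e-13). Its near copies beside it, with which reads may be shared, had other values: EARLI1 was at -0.66 (adjusted p = 0.000987), AT4G12490 at 0.54 (adjusted p = 0.022) and AT4G12500 at -0.55 (adjusted p = 0.0879).

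Water channels of the vacuole were represented by the whole TIP2 subfamily that was measured. TIP2;1 (AT3G16240), TIP2;2 (AT4G17340) and TIP2;3 (AT5G47450), tonoplast proteins that pass water and ammonia, were the only members among 25 aquaporin genes. TIP2;2 had 629.8, 545 and 554 normalized counts in the coronatine libraries with NaCl, against 2998, 2287 and 2851 in the DMSO libraries with NaCl. The levels of TIP2;2 that entered the rule were 527, 479 and 409 with coronatine, against 2519.6, 2356 and 2301 with DMSO. With DPAM-1, TIP2;2 stood at 3964, 3479 and 3208 under NaCl and at 3709.5, 3237 and 3769 without it. The coronatine libraries with NaCl did not overlap with those of DMSO or DPAM-1 with NaCl. Under NaCl TIP2;1 was at -1.58 ± 0.11 (SE), adjusted p = 1.98e-11, TIP2;2 at -2.23 ± 0.11 (SE), adjusted p = 4.79e-14 and TIP2;3 at -2.05 ± 0.13 (SE), adjusted p = 7.36e-12. Of the 22 other aquaporins 7 fell and 13 rose. Other transport members were COPT2, a copper uptake protein, at -2.32, ABCB2, an ABC transporter, at -1.63, and AT2G36630 at -1.51; all 3 were called.

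Members included hormone-linked growth genes. GASA6, GASA5 and AT5G14920 code for small cysteine-rich proteins of the gibberellin-regulated GASA family and were 3 of 14 genes on the gibberellin list. Of the 11 others 5 fell and 4 rose in coronatine with NaCl against DMSO with NaCl. GASA6 (AT1G74670) had 32.6, 39.7 and 36.4 normalized counts in the coronatine libraries with NaCl, against 630.3, 854 and 517 in the DMSO libraries with NaCl. The levels of GASA6 that entered the rule were 39.1, 43.6 and 59.2 with coronatine, against 848, 755 and 454 with DMSO. With DPAM-1, GASA6 stood at 297, 463 and 449 under NaCl and at 469.6, 299 and 437 without it. No coronatine library with NaCl came near a DPAM-1 or DMSO library with NaCl. Under NaCl GASA6 was at -4.22 ± 0.27 (SE), adjusted p = 5.42e-12, the largest fall of the 136. GASA5 (AT3G02885) was at -3.54 ± 0.18 (SE), adjusted p = 6.92e-14 and AT5G14920 at -1.62 ± 0.09 (SE), adjusted p = 3.02e-13. On the list of brassinosteroid-induced genes 7 of 18 were members, namely XTH4, XTH17, XTH19, GASA6, TIP2;1, BEE1 and BEE2; of the other 11, 7 fell and 3 rose. The list of 18 genes for brassinosteroid synthesis and signalling held 0 members. Both lists were chosen with earlier results of these data known, so these shares are description only.

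Regulators among the members numbered 19, and all fell under NaCl (median -1.88, range -3.54 to -0.85). BEE1 (AT1G18400) and BEE2 (AT4G36540) are bHLH transcription factors of early brassinosteroid response. BEE1 had 81.3, 80.7 and 85.3 normalized counts in coronatine with NaCl, against 316, 292 and 201 in DMSO with NaCl (-1.71 ± 0.20 (SE), adjusted p = 1.18e-07). BEE2 had 37.8, 75.4 and 60.3 in coronatine with NaCl, against 394, 405 and 349.8 in DMSO with NaCl (-2.80 ± 0.19 (SE), adjusted p = 2.13e-11). AT5G02760, a protein phosphatase 2C, was the lowest regulator at -3.54 ± 0.17 (SE), adjusted p = 2.64e-14. AT4G34760, a small auxin-upregulated (SAUR-like) protein and the only member among 67 auxin genes, was at -2.47 ± 0.14 (SE), adjusted p = 4.64e-13. Of the 66 other auxin genes 24 fell and 17 rose. NPH3 (AT5G64330), a partner of the blue-light receptor phototropin, was at -2.19 ± 0.14 (SE), adjusted p = 8.44e-12. The smallest falls of the whole set were also here. MEKK3 (AT4G08470), a MAP kinase kinase kinase, was at -0.99 ± 0.18 (SE), adjusted p = 8.82e-05. CAMBP25 (AT2G41010), a calmodulin-binding protein, was at -0.85 ± 0.17 (SE), adjusted p = 0.000267, and its per-library levels were 266, 217 and 211 in coronatine with NaCl, against 371, 474 and 418 in DMSO with NaCl.

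Other regulators spanned much of that range. DREB26, whose product is a DNA-binding protein of the AP2 type, was at -3.22 ± 0.35 (SE), adjusted p = 4.41e-08 (-2.47 without DMSO replicate 1 under NaCl). SIB2 (AT2G41180), a VQ-motif protein, was at -1.88 ± 0.17 (SE), adjusted p = 1.88e-09, and RL4 (AT2G18328), a small MYB-like protein, at -1.14 ± 0.13 (SE), adjusted p = 1.73e-07. SD1-29 (AT1G61380), a receptor kinase that senses bacterial fatty acids, was at -1.48 ± 0.18 (SE), adjusted p = 3.06e-07. AT2G41090, an EF-hand calcium-binding protein and the most abundant regulator, had 2169, 1316 and 1342 normalized counts in coronatine with NaCl, against 3834, 3342 and 3556 in DMSO with NaCl. Its log2 fold change of -1.15 ± 0.25 (SE), adjusted p = 0.000672, came with the largest p of all 136 genes. Its first coronatine library was well above the other two, without overlap with DMSO. AT5G26010, another protein phosphatase 2C, was at -1.47 ± 0.19 (SE), adjusted p = 6.9e-07.

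Defence and stress genes were in the set as well: 12 members code for defence or stress proteins, with ratios of 0.120 to 0.313, and all fell under NaCl (median -2.08, range -3.16 to -1.66). OSM34 (AT4G11650), an osmotin of the pathogenesis-related type, was lowest at -3.16 ± 0.23 (SE), adjusted p = 7.09e-11. The chitinase AT1G02360 was at -2.67 ± 0.18 (SE), adjusted p = 1.13e-11 and ChiC (AT4G19810), another, at -2.35 ± 0.15 (SE), adjusted p = 6.87e-12. RD22 (AT5G25610), a dehydration-responsive gene, and COR47 (AT1G20440), a dehydrin, were at -2.34 and -1.66. GSTF7 (AT1G02920) had 257, 269.8 and 241 normalized counts in the coronatine libraries with NaCl, against 2069.6, 1974 and 1601 in the DMSO libraries with NaCl. The levels of GSTF7 that entered the rule were 155, 179.5 and 162 with coronatine, against 835, 751 and 698 with DMSO. With DPAM-1, GSTF7 stood at 2333, 2346 and 1999 under NaCl and at 1499, 1163 and 1801 without it. All coronatine libraries of GSTF7 with NaCl lay under the other libraries with NaCl. Its log2 fold change with NaCl was -2.88 ± 0.14 (SE), adjusted p = 1.54e-14. Its near-identical neighbour GSTF6 rose by 2.25 ± 0.09 (SE), adjusted p = 1.19e-15 in the same comparison, and reads of the pair cannot be assigned with certainty. GSTF2 (AT4G02520) was at -1.86 ± 0.09 (SE), adjusted p = 1.49e-14; of the 33 glutathione transferases that are not members 7 fell and 19 rose.

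Abundant members with roles in the wall, the vacuole and defence are given here by level. AZI1, GRP9, XTH31 and TIP2;1 had mean levels of 2341, 4064, 2469.6 and 2358 normalized counts in coronatine, against 21919.5, 13275, 13085 and 9246 in DMSO. GRP9 (AT2G05440) had 3858, 4238 and 4624 in coronatine with NaCl, against 13857, 12651 and 13517 in DMSO with NaCl, at -1.66 ± 0.12 (SE), adjusted p = 6.61e-11. TIR (AT1G72930), a protein with only the TIR domain of immune receptors, was at -1.78 ± 0.14 (SE), adjusted p = 2.22e-10, and HIR2, a membrane protein of the hypersensitive reaction, at -1.68 ± 0.14 (SE), adjusted p = 6.71e-10. AT2G38870, a serine protease inhibitor, was at -1.85 ± 0.11 (SE), adjusted p = 5.47e-13.

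Metabolic enzymes gave 12 members (median -2.21, range -3.06 to -1.03 under NaCl) and proteases 4 (median -1.58, range -2.33 to -1.24). IGMT4 (AT1G21130), a methyltransferase of indole glucosinolates, was at -2.77 ± 0.20 (SE), adjusted p = 3.47e-11. Reads of IGMT4 and its near copies cannot be assigned with certainty: IGMT3 was at -1.90 (adjusted p = 4.68e-08) and IGMT1 at 2.60 (adjusted p = 1.04e-13). CAD9, a cinnamyl alcohol dehydrogenase, was at -2.50, and PAP3, a purple acid phosphatase, at -2.17, both called. ACO1 (AT2G19590), which makes ethylene from its precursor, was at -1.03 ± 0.21 (SE), adjusted p = 0.000258. AT1G73600 and AT1G73602 had counts that differed by at most 1.03 times in every library and cannot be told apart; counted once, the set has 135 genes. The aspartyl protease AT3G54400, at -1.76 ± 0.08 (SE), adjusted p = 2.67e-15, was among the 10 most abundant members.

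Some members lie beside each other on a chromosome. Taking only measured genes in order, 11 members lay directly beside another member, in 5 runs: the GDSL lipases AT1G28660 and ARAB-1, the GDSL lipases AT1G29660 and AT1G29670, the peroxidases AT5G64100 and AT5G64120, the pair AT1G73600 and AT1G73602 that shares reads, and AT1G65486, AT1G65490 and AT1G65500, which have no annotated function. Low levels with coronatine chose every gene of these runs, so their shared direction is no result, and the share of neighbours among all genes was not computed. AT1G65490 had 246, 159 and 208 normalized counts in the coronatine libraries with NaCl, against 1649, 1365 and 1623 in the DMSO libraries with NaCl. The levels of AT1G65490 that entered the rule were 161, 236 and 166 with coronatine, against 2323, 2372 and 1799 with DMSO. With DPAM-1, AT1G65490 stood at 1177, 1849 and 1572 under NaCl and at 1410.3, 1634 and 1773 without it. The coronatine libraries of AT1G65490 with NaCl were all under those of DMSO and DPAM-1 with NaCl. Under NaCl its log2 fold change was -2.90 ± 0.17 (SE), adjusted p = 1.3e-12, that of AT1G65486 -2.54 ± 0.17 (SE), adjusted p = 1.49e-11 and that of AT1G65500 -1.60 ± 0.24 (SE), adjusted p = 5.9e-06.

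The upstream sequences of these 3 neighbours are shown because the genes lie side by side and all were chosen as members. The sequence of AT5G64120, of the peroxidase pair, is given as well, and that of AT5G64100 is not shown. The deposited tables hold no positions, so each gene was located by its code in the RefSeq TAIR10.1 annotation; shown are the 250 bases before its start, 5′ to 3′ on the gene's strand. Capitals mark the I-box (GATAAG, here as CTTATC on the opposite strand) in the first 3, and in AT5G64120 the letters of CGTGTG read on the opposite strand and the TATA box (TATAAA).
AT1G65486 (chr1:24349149-24349398, plus strand): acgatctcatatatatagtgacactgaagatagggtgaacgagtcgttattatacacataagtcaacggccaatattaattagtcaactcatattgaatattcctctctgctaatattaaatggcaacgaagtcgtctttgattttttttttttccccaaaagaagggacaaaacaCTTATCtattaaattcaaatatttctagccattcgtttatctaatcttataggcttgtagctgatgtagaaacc
AT1G65490 (chr1:24354396-24354645, plus strand): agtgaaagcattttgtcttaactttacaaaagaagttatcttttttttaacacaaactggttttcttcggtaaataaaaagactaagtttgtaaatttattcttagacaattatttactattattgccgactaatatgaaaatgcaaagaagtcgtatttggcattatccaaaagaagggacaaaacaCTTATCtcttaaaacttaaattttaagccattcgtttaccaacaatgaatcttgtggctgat
AT1G65500 (chr1:24357499-24357748, plus strand): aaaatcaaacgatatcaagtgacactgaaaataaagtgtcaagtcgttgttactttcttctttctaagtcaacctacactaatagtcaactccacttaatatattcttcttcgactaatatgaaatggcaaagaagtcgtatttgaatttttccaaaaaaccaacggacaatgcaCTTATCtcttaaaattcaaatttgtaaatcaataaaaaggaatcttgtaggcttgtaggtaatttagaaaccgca
AT5G64120 (chr5:25661008-25661257, minus strand): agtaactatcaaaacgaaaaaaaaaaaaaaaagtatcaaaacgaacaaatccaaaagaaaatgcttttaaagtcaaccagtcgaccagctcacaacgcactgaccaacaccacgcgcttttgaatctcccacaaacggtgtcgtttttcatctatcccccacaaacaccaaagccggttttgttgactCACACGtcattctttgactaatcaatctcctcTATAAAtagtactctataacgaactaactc
The I-box letters began 74, 62 and 75 bases before the start of AT1G65486, AT1G65490 and AT1G65500. They lie within the longest run that all 3 sequences share, 9 letters. The bases around it are similar without being equal.

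Over all members with an annotated start, 135 windows from 250 bases before to 50 after it were searched on both strands for 8 short motifs, beside 14104 windows of genes in the table. The G-box CACGTG, a site that MYC2 and other bHLH and bZIP factors can bind, was in 3.70% of the members' windows and 9.25% of all windows. The Site II element TGGGCC, known from genes of ribosomes and dividing cells, was in 2.96% of the members' windows and 21.2% of all windows, and the telo-box AAACCCTA in 2.22% of the members' windows and 5.80% of all windows. Brassinosteroid response letters CGTGTG were in 6.67% of the members' windows and 6.69% of all windows, and the second form CGTGCG in 2.96% of the members' windows and 2.25% of all windows. The auxin response core TGTCTC was in 14.8% of the members' windows and 13.0% of all windows, the I-box GATAAG in 16.3% of the members' windows and 15.2% of all windows and the TATA box TATAAA in 54.1% of the members' windows and 51.3% of all windows. A G-box that overlaps a CGTGTG on the other strand counts for both. 34 members, among them GASA6 and XTH4, had none of the 8. The 50 bases after the start, not shown above, held a G-box and a CGTGTG in AT1G65500 and a telo-box in AT5G64120. These are matches of letters only. Members lay on all 5 chromosomes, with 19 to 37 on each.

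The largest single class, 25 genes, has no clear role in the annotation, and its median under NaCl was -2.54. AT5G42530 had 864, 1053 and 887 normalized counts in the coronatine libraries with NaCl, against 12332, 11850.5 and 11905 in the DMSO libraries with NaCl. The levels of AT5G42530 that entered the rule were 753, 1409.7 and 902 with coronatine, against 8553, 8221 and 7322 with DMSO. With DPAM-1, AT5G42530 stood at 17782, 13634 and 14952 under NaCl and at 17469, 14138 and 23516 without it. AT5G42530 was at -3.69 ± 0.19 (SE), adjusted p = 6.33e-14 under NaCl. AT5G16030 was at -3.35 ± 0.17 (SE), adjusted p = 4.28e-14 and AT4G29905 at -3.28 ± 0.14 (SE), adjusted p = 2.18e-15. NAKR3 (AT3G53530), a heavy-metal-binding protein related to a regulator of phloem transport, was at -2.96 ± 0.19 (SE), adjusted p = 5.06e-12.

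**Figure D3:**
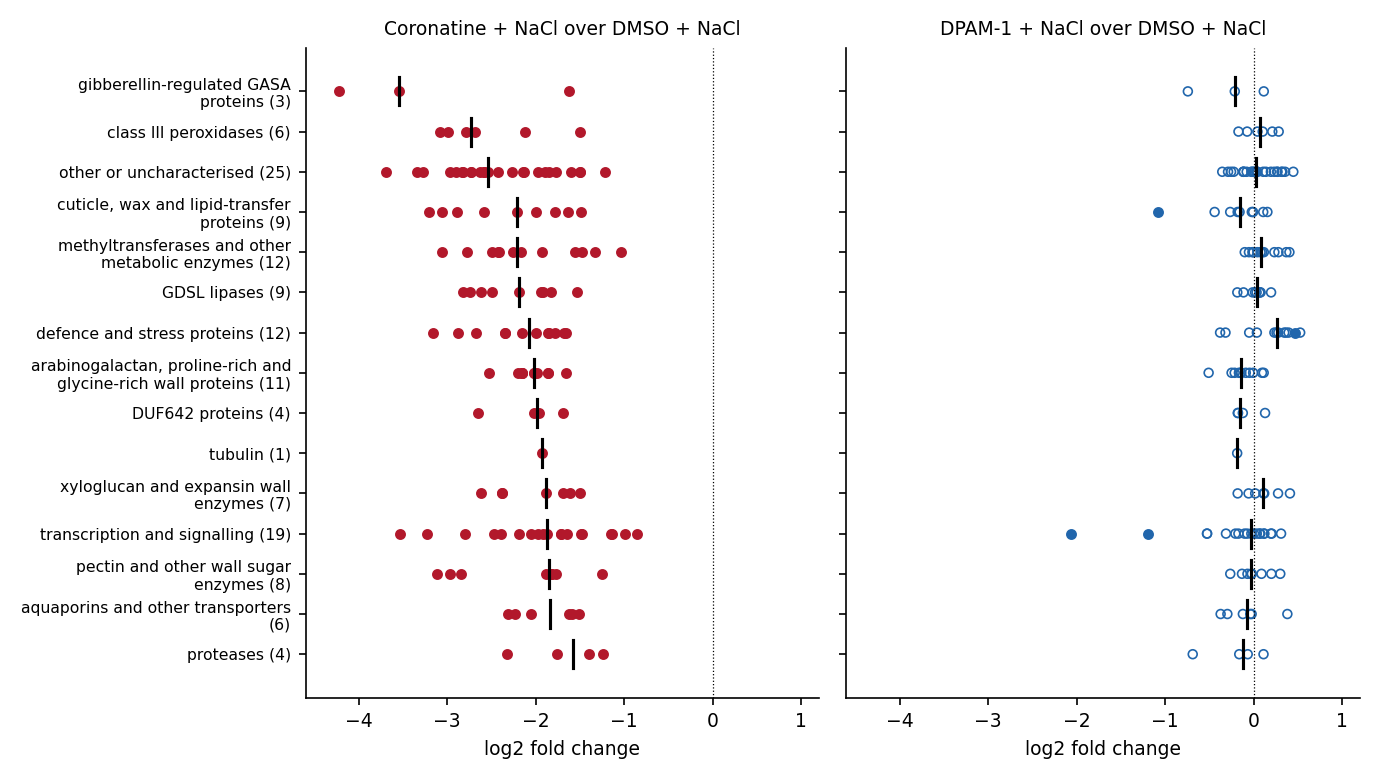
Each circle is 1 gene in its functional class, with the number of genes in brackets; the horizontal axis is the log2 fold change under NaCl, coronatine over DMSO on the left and DPAM-1 over DMSO on the right. Filled circles passed an adjusted p of 0.05 and black bars are class medians; every circle on the left lies below -0.8, while 4 on the right are filled.

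DPAM-1 with NaCl left the set near the level of DMSO with NaCl. By the same test 3 of 136 genes fell and 1 rose, where 0.401% and 0.176% of all genes did. The 3 DPAM-1 libraries lay wholly below the DMSO libraries in 14 genes and wholly above in 17, as did 7.93% and 9.74% of all genes. The median was -0.00 and the quartiles were -0.16 and 0.12, against -0.11 and 0.10 for all genes; 127 members were within 0.5 of 0. DREB26 (AT1G21910), an ethylene-response-factor type of transcription factor, was at -2.06 ± 0.32 (SE), adjusted p = 0.00163. DREB26 had 105, 66.1 and 57.2 normalized counts in the coronatine libraries with NaCl, against 1314, 515 and 360.1 in the DMSO libraries with NaCl. The levels of DREB26 that entered the rule were 76.1, 85.2 and 121 with coronatine, against 508, 576 and 380.1 with DMSO. With DPAM-1, DREB26 stood at 154, 183 and 198 under NaCl and at 642, 535 and 585 without it. All 3 DPAM-1 libraries with NaCl lay below all 3 DMSO libraries with NaCl, whose first library was more than 2 times the others; without that library the difference was -1.30 and still passed. These DMSO libraries are those of the comparison with coronatine under NaCl. AT2G33830, a dormancy- and auxin-associated protein, was at -1.19 ± 0.24 (SE), adjusted p = 0.016, and AT5G46890 at -1.08 ± 0.14 (SE), adjusted p = 0.000159. GSTF2 rose by 0.47 ± 0.08 (SE), adjusted p = 0.00608; the call of GSTF2 ended without DPAM-1 replicate 1 or 2 under NaCl. That of AT2G33830 ended when replicate 1 of DMSO, or 2 or 3 of DPAM-1, was left out under NaCl (adjusted p up to 0.145). With only the 2 groups compared in the fit, AT2G33830 (adjusted p = 0.0950) and DREB26 (0.0570) did not pass.

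The 10 members of lowest coronatine ratio differed in the interval of the DPAM-1 difference under NaCl. AT5G46890, the lowest, was at -1.08 (95% interval -1.38 to -0.79) and passed. GASA6 was at -0.74 (95% interval -1.18 to -0.31) and AT5G02760 at -0.53 (95% interval -0.81 to -0.24); neither passed (adjusted p = 0.126 and 0.0947). AT3G01190 was at -0.17 (95% interval -0.53 to 0.19), AT1G65490 at -0.02 (95% interval -0.34 to 0.29), AT4G16260 at 0.20 (95% interval -0.19 to 0.59) and AZI1 at -0.02 (95% interval -0.33 to 0.29). AT5G64120 was at 0.04 (95% interval -0.29 to 0.38), ORS1 at 0.00 (95% interval -0.39 to 0.40) and AT5G64100 at 0.21 (95% interval -0.05 to 0.48). The intervals of AT5G46890 and GASA6 include a fall of 2-fold, and those of the other 8 do not. Without NaCl the DPAM-1 libraries, set against DMSO libraries that the rule had used, gave values from -1.31 (AT2G33830) to 1.19 (AT5G42530) with a median of 0.02. GSTF7 was at 0.96 there, IGMT4 at 0.99 and AT3G01190 at -0.86.

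Set against each other under NaCl, the compounds differed in nearly all members. Coronatine was lower than DPAM-1 in 135 of 136 and higher in 0, where 20.9% and 21.4% of all genes were; the median was -2.09. The libraries did not overlap, with coronatine lower, in 135 genes and 27.5% of all; with coronatine higher, in 0 and 28.2%. At an unadjusted p under 0.05 and by DESeq2 the count higher was also 0. These coronatine libraries are those of the comparison with DMSO above. AT5G42530 showed the largest difference at -4.05 ± 0.19 (SE), adjusted p = 1.71e-14, followed by OSM34 at -3.69 ± 0.24 (SE), adjusted p = 5.21e-12 and GASA5 at -3.66 ± 0.18 (SE), adjusted p = 5e-14. CP1 (AT4G36880), a cysteine protease, was the exception at -0.71 ± 0.31 (SE), adjusted p = 0.0737, with 191, 71.4 and 82.2 normalized counts in coronatine with NaCl and 276, 148 and 156 in DPAM-1 with NaCl. Its first coronatine library overlapped the DPAM-1 range, and without it the difference was -1.34 and passed (adjusted p = 0.00197). The smallest called differences were those of CAMBP25 (-0.54 ± 0.18 (SE), adjusted p = 0.0166) and MEKK3 (-0.96 ± 0.19 (SE), adjusted p = 0.000178). The call of CAMBP25 ended without coronatine replicate 2 or 3 or DPAM-1 replicate 1, and that of DREB26 (-1.16 ± 0.37 (SE), adjusted p = 0.0147) without coronatine replicate 3.

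**Figure D4:**
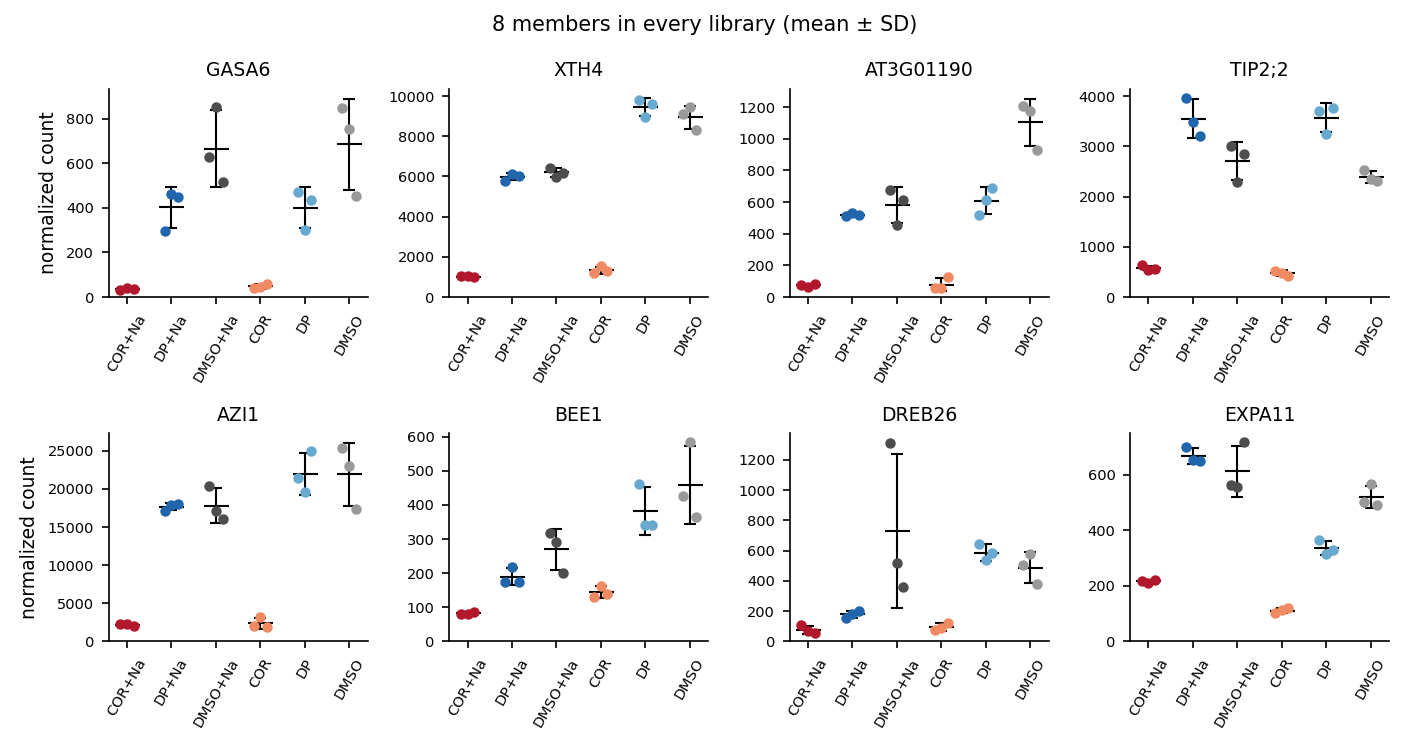
Normalized counts of 8 members in every library, with the mean and SD of each group of 3 as bars; COR is coronatine, DP is DPAM-1 and Na is NaCl. In all 8 panels coronatine with NaCl is the lowest group with NaCl. Without NaCl, coronatine lies under DMSO by the choice of genes. For DREB26 the 3 DPAM-1 libraries with NaCl also lie below the 3 DMSO libraries with NaCl.

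The response to NaCl within DPAM-1 involves no library that the rule used. Of 136 members 32 fell and 15 rose, where 5.33% and 6.92% of all genes did, and 89 did not pass. Libraries with NaCl lay wholly below those without in 42 members and 15.4% of all genes, and wholly above in 32 and 16.4%. The median was -0.07 and the range -1.99 (XTH17) to 1.26 (AT1G30700). XTH17 (AT1G65310) had 385, 349.7 and 323 normalized counts in DPAM-1 with NaCl, against 1496, 1215 and 1481 in DPAM-1 (-1.99 ± 0.17 (SE), adjusted p = 5.26e-08). FLA13 was at -1.75 ± 0.14 (SE), adjusted p = 2.75e-08, DREB26 at -1.73 ± 0.33 (SE), adjusted p = 0.000733, AT5G02760 at -1.52 ± 0.14 (SE), adjusted p = 9.25e-08 and the lipase AT1G28660 at -1.46 ± 0.14 (SE), adjusted p = 1.24e-07. By class, 5 of 9 GDSL lipases, 4 of 11 wall glycoproteins and 6 of 19 regulators fell. Of these, the lipases AT4G18970 (adjusted p = 0.0494) and LTL1, the glycoprotein AGP13 and the regulators RL4 and NPH3 lost the call in at least 1 alternative. Outside the set 17 of 28 other arabinogalactan and fasciclin-like genes fell as well, and 0 of 28 other GDSL lipases did.

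Genes that rose with NaCl after DPAM-1 were led by AT1G30700, which had 617, 608 and 518 normalized counts in DPAM-1 with NaCl, against 261, 247 and 221 in DPAM-1 (1.26 ± 0.14 (SE), adjusted p = 1.2e-06). EXPA11 (AT1G20190) had 699.6, 652 and 648 in DPAM-1 with NaCl, against 363, 314 and 328 in DPAM-1 (0.99 ± 0.11 (SE), adjusted p = 1.03e-06). COR47 rose by 0.91 ± 0.13 (SE), adjusted p = 2.45e-05, and RD22 by 0.76 ± 0.13 (SE), adjusted p = 0.000352. Of the 5 XTH members XTH17, XTH8 and XTH4 fell, at -1.99, -1.29 and -0.66, XTH31 rose by 0.51 ± 0.08 (SE), adjusted p = 8.16e-05, and XTH19 did not pass (adjusted p = 0.553). Among the 16 other XTH genes 7 fell and 1 rose, and the median of all 21 was -0.46. With AT1G73600 and AT1G73602 counted once, 14 genes rose.

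**Figure D5:**
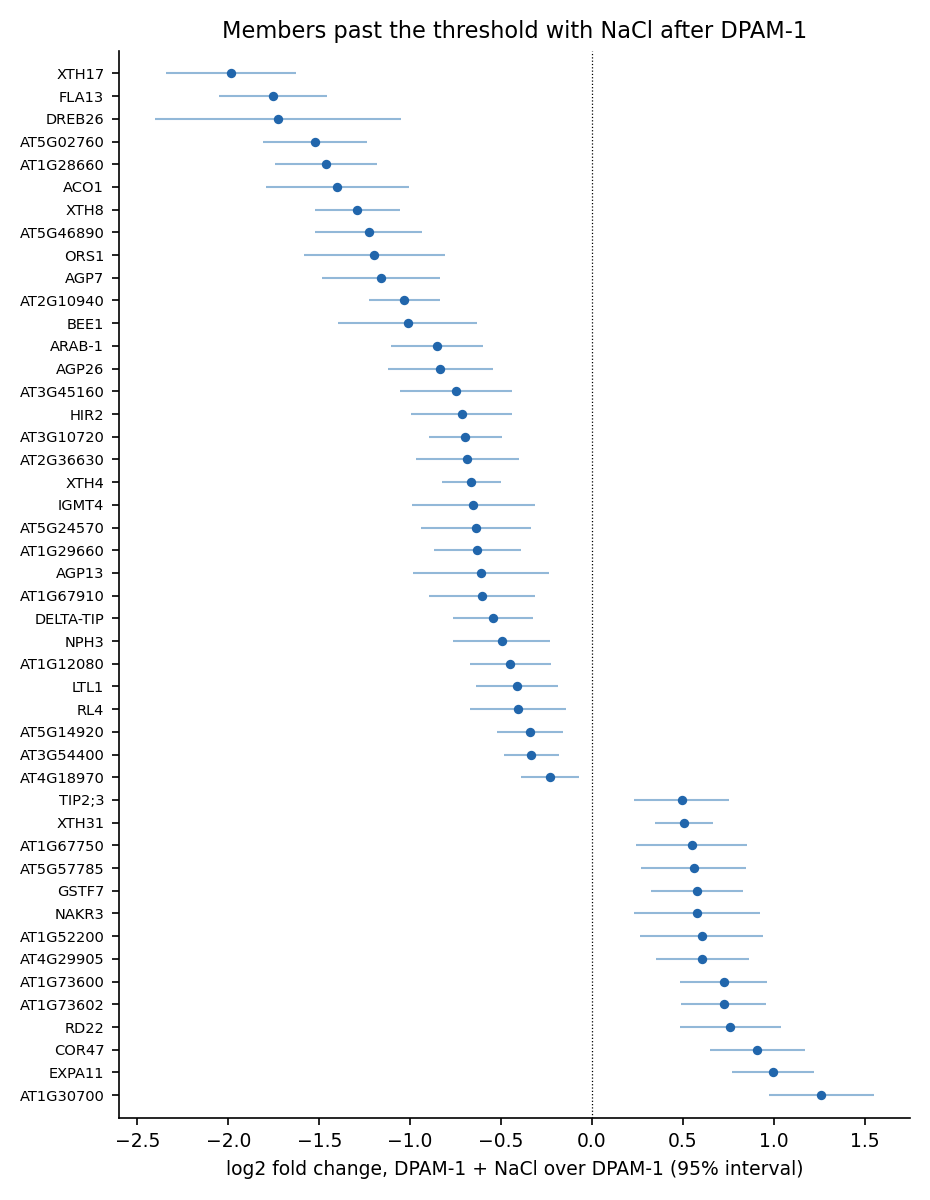
The 47 members past an adjusted p of 0.05, less 1 that is not reported here, ordered by log2 fold change of DPAM-1 with NaCl over DPAM-1, with 95% intervals; DELTA-TIP is TIP2;1. The lowest is XTH17 at -1.99 and the highest AT1G30700 at 1.26.

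In coronatine and in DMSO the NaCl response is given as values only, since both hold libraries that the rule used. The members' median for NaCl was -0.10 in coronatine (range -1.33 to 1.28) and -0.10 in DMSO (range -1.73 to 1.60). BEE2 was lowest in coronatine at -1.33 and CAMBP25 highest at 1.28. In DMSO XTH17 was lowest at -1.73 and AT1G30700 highest at 1.60. RD22 was at 0.42 in coronatine, 0.76 in DPAM-1 and 0.53 in DMSO, and COR47 at 1.17, 0.91 and 1.05. COR47 under NaCl still had 2556, 2418 and 2343 normalized counts in coronatine, against 7354, 6007 and 9659 in DMSO.

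Several functions were measured but held no member. None of 40 photosystem and light-harvesting, 23 Calvin cycle, 50 cell division, 27 cytokinin, 29 nitrogen assimilation or 36 HD-Zip homeobox genes had a ratio of at most 0.33. In coronatine against DMSO under NaCl 24.0% of all genes fell and 23.8% rose. There 2 photosystem genes fell and 19 rose, and 26 cell division genes fell and 3 rose. Calvin cycle genes had 14 lower and 2 higher, with a median log2 fold change of -0.26, against -2.09 for the 136 members.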

How the data were processed

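RNA from 18 seedling samples was sequenced by Lasy-Seq v1.1, which reads transcripts from the 3′ end, so levels are not scaled by gene length. Per the submitters' processing notes, bcl2fastq, Trimmomatic, HISAT2, featureCounts and DESeq2 were used with the build TAIR10; versions are not given in the sources used here. The authors deposited raw counts per gene. Another table they deposited holds a scaled signal, called normalized counts here: each library's counts over a single factor (0.696 to 1.81). Levels and ratios come from the scaled table, tests from the counts. Strand use in counting is not given in the sources used here, and near copies may share reads.

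Symbols and products were looked up in RefSeq's TAIR10.1 annotation (14105 of 14229 found, 135 of 136 members). Tests used edgeR 4.0.16 (limma 3.58.1, R 4.3.3) on the counts: TMM factors (0.847 to 1.13), the edgeR filter, which removed 0 genes, and 1 quasi-likelihood model over all 18 libraries with a mean per group, two-sided, with Benjamini-Hochberg adjustment over all genes of a comparison. The biological coefficient of variation was 10.4%. Data were simulated for coronatine with NaCl against DMSO with NaCl, with 200 of 14229 genes changed. There 97% of 2-fold and 100% of 4-fold changes were recovered, and 11 unchanged genes were called. Many more genes were called in the real comparison, and the comparisons with DPAM-1 were not simulated, so these rates need not hold for them. Library totals of 13638981 to 37279056 counts set the precision; without molecular identifiers reads are not independent molecules. Alternatives were DESeq2 1.42.0, other scaling, other filters, a replicate block, only the groups compared and each library left out.

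Members, gene lists and functional classes were chosen with earlier results of these data known; 30 false symbol matches were removed from the lists by their product names. Genes were named by rule: the 10 members of lowest ratio, the 10 most abundant in DMSO, up to 4 members per gene list, the 5 lowest and 5 highest called members of each further comparison, members not called lower under NaCl, the 3 genes on either side of the limit, and near copies. Other members named as examples of their class were chosen after their values were seen. 1 member that the rule names is not reported here.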

Additional observations from a re-analysis of the deposited data

Results flagged for a closer look

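In 5 members every library moved one way with NaCl after coronatine and the opposite way after another pretreatment. The share of all genes that did so is not given here, so the count is no result about the set. The difference was not tested, because the coronatine and DMSO libraries without NaCl had chosen the genes. ORS1 (AT2G41230), of a family that affects organ size, was at 0.62 on the log2 scale with NaCl after coronatine, against -0.87 after DMSO and -1.20 after DPAM-1. ORS1 had 132, 108 and 107 normalized counts in the coronatine libraries with NaCl, against 534, 264 and 347 in the DMSO libraries with NaCl. The levels of ORS1 that entered the rule were 68.9, 95.3 and 63.5 with coronatine, against 880.0, 679.9 and 552 with DMSO. With DPAM-1, ORS1 stood at 376, 368 and 424 under NaCl and at 849, 879.9 and 937 without it. The 3 coronatine libraries with NaCl all exceeded those without it, while in DPAM-1 and DMSO those with NaCl were all lower. RL4 (AT2G18328), a small MYB-like protein of the RADIALIS family, was at 0.49 after coronatine, against -0.36 after DMSO and -0.41 after DPAM-1. MEKK3 was at 0.34 after coronatine, against -0.34 after DMSO. GASA5 was at -0.59 after coronatine, against 0.40 after DPAM-1. COPT2 was at -0.37 after coronatine, against 0.27 after DPAM-1. Of these values only that of ORS1 after DPAM-1 is past 2-fold.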

How the results depend on the processing

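Coronatine with NaCl against DMSO with NaCl kept 136 members lower and 0 higher under DESeq2, the RLE, upper-quartile and library-total scalings, both filters, the replicate block, the 2 groups alone and each library left out; the 2-fold demand left 134. Coronatine against DPAM-1 under NaCl ranged over 133 to 136 lower with a library left out. DPAM-1 against DMSO under NaCl (3 lower and 1 higher) gave 1 lower with only the groups compared, 2 higher with the replicate block, 2 higher with DESeq2, 0 higher with the 2-fold demand, and 2 to 5 lower and 0 to 2 higher with a library left out; with only the groups compared DREB26 had an adjusted p of 0.0570. NaCl after DPAM-1 (32 lower and 15 higher) gave 24 higher with only the groups compared, 12 lower and 1 higher with the 2-fold demand, and 25 to 32 lower and 11 to 16 higher with a library left out; 12 of its 47 called members lost the call in at least 1 alternative, RL4, AGP13 and AT4G18970 among them. The cause was not tested. The main fit did not pair the libraries, and the labels do not say whether equal replicate numbers pair them. Same-numbered deviations correlated over genes at -0.05 to 0.04, and differently numbered ones at -0.06 to 0.07. The replicate block gave 31 lower and 15 higher for NaCl after DPAM-1 and, beside the 2 higher above, moved no count by over 1.5 times. The set itself had 137 genes on TMM-scaled counts, 62 at a ratio of 0.25, 431 at 0.5, and 126 to 152 with a coronatine or DMSO library left out; 97 genes were kept in all of those. Members near 30 counts in coronatine libraries are limited by depth: genes that coronatine pushed under that count are not seen.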
